A study of Mus musculus with 7 samples.

Results

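The mitochondrial ribosomal protein genes were taken as all genes whose symbol in the platform annotation began with Mrpl or Mrps followed by a digit. There were 74 among 16468 named genes on the array, 47 named for the large and 27 for the small subunit. Liver RNA was measured in 3 mice carrying a Zfp90 transgene (1 female and 2 males) and in 4 wild-type littermates (1 female and 3 males). On 2-colour arrays, RNA of each animal was set against a common pool, made from the livers of 4 wild-type controls, male and female. The promoter of the transgene, the strain and the age of the mice are not given in the sources used here. The design asks which liver transcripts differ between transgenic and wild-type animals. Values are log2 ratios to the pool, differences are transgenic minus wild type in a limma model with sex, and the 0.05 threshold applies to the p adjusted over all 22218 features. Ratios give no absolute level, so genes are compared only by their differences, and whether the RNA has a liver profile cannot be read from them. In bulk tissue, fewer cells of a type and less RNA per cell cannot be told apart.

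The mitochondrial ribosome makes the few proteins encoded by mitochondrial DNA, which are core parts of the respiratory chain. Its RNAs come from mitochondrial DNA, but all of its proteins are encoded in the nucleus, made in the cytosol and imported. The Mrpl genes are named for the large subunit, which forms peptide bonds and holds the exit tunnel. The Mrps genes are named for the small subunit, which reads the messenger RNA. Genes are counted here by symbol alone, and not every Mrps protein sits in the small subunit. Part of the proteins have counterparts in bacterial ribosomes and the others are specific to mitochondria. The liver is rich in mitochondria and needs this machinery to maintain oxidative metabolism.

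Zfp90 read 0.34, 0.58 and 0.45 in the transgenic female and males 1 and 2. In the wild-type female and males 2, 3 and 4 it read 0.37, -0.15, -0.29 and -0.11. The difference was 0.48 ± 0.15 SE (limma, adjusted p = 0.678), so Zfp90 itself did not pass the threshold applied to the members. The array labelled wild-type female lay within the transgenic range. Results are therefore also given without it, which leaves a genotype difference that rests on the males. The means of 6 measured Kupffer cell and macrophage markers ran from 0.19 to 0.60 in transgenic animals and from -0.69 to 0.78 in wild-type animals, with the highest value again on that female array. Those of 8 hepatocyte markers ran from -0.39 to -0.12 in transgenic and from -0.19 to 0.15 in wild-type animals. Of these 8, 4 were on the higher side in transgenic animals, and the median difference was -0.04. The part of either marker set in the results below was not tested.

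Transcripts of the mitochondrial ribosome lay on both sides in the transgenic livers, with medians near 0 for both subunits. Of the 47 large subunit genes 26 lay on the higher side in transgenic animals and 21 on the lower (median difference 0.02). Of the 27 small subunit genes 14 were positive and 13 negative, with a median of 0.03. Over all 22218 features the median was -0.01 and 48.2% were positive. Averaged over the large subunit, the ratios were -0.05, 0.02 and 0.03 in the transgenic female and males 1 and 2, and -0.04, 0.01, -0.02 and 0.02 in the wild-type female and males 2, 3 and 4. The large subunit averaged -0.00 ± 0.04 over the 3 transgenic livers and -0.01 ± 0.03 over the 4 wild-type livers (SD), which differ by less than the spread between animals. For the small subunit they were 0.01 ± 0.02 in transgenic and 0.00 ± 0.04 in wild-type animals. The transgenic female was the lowest animal for the large subunit, and wild-type male 3 the lowest for the small subunit.

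**Figure D1:**
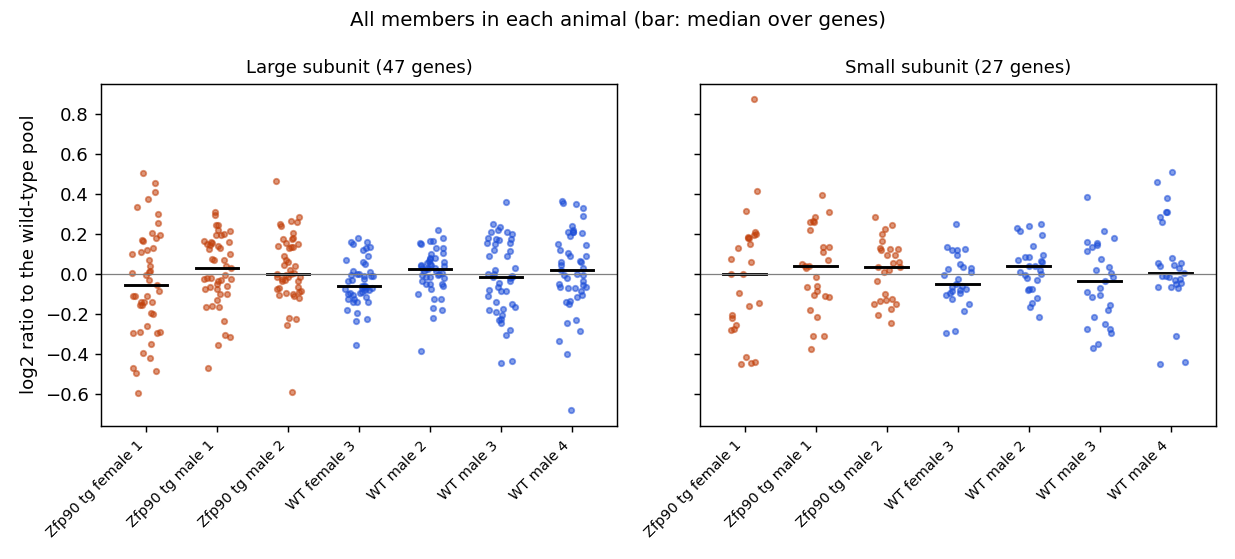
Log2 ratio to the wild-type pool (vertical axis) of every member in each animal (horizontal axis), for the large subunit (left) and the small subunit (right). Each point is a gene, orange in transgenic and blue in wild-type animals, and the bar is the median over genes. All 7 medians lie near 0 for both subunits, and the points spread widest in the transgenic female.

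No member passed the threshold: limma called 0 of 74 members and 0% of all features, and the smallest adjusted p of a member was 0.653. At an unadjusted p under 0.05 there were 5 members, all of the large subunit: 4 higher, against 3.82% of all features, and 1 lower, against 3.1%. In either direction it was 6.91% of all features and 6.76% of the members, a share near the background. The 2 genotypes did not overlap in 6 members, against 6.01% of all features: all transgenic livers were higher in 4 members (3.17% of all features) and lower in 2 (2.84%). With each array centred on its median 4 of these 6 still did not overlap, and with quantile normalization 3 did not, Mrpl16, Mrpl13 and Mrpl37. The fitted differences ran from -0.39 to 0.53, with an SD over genes of 0.17 (0.20 over all features). The range over the 4 wild-type animals had a median of 0.35 over the members, and the genotype difference exceeded it in 6 members, against 5.89% of all features.

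**Figure D2:**
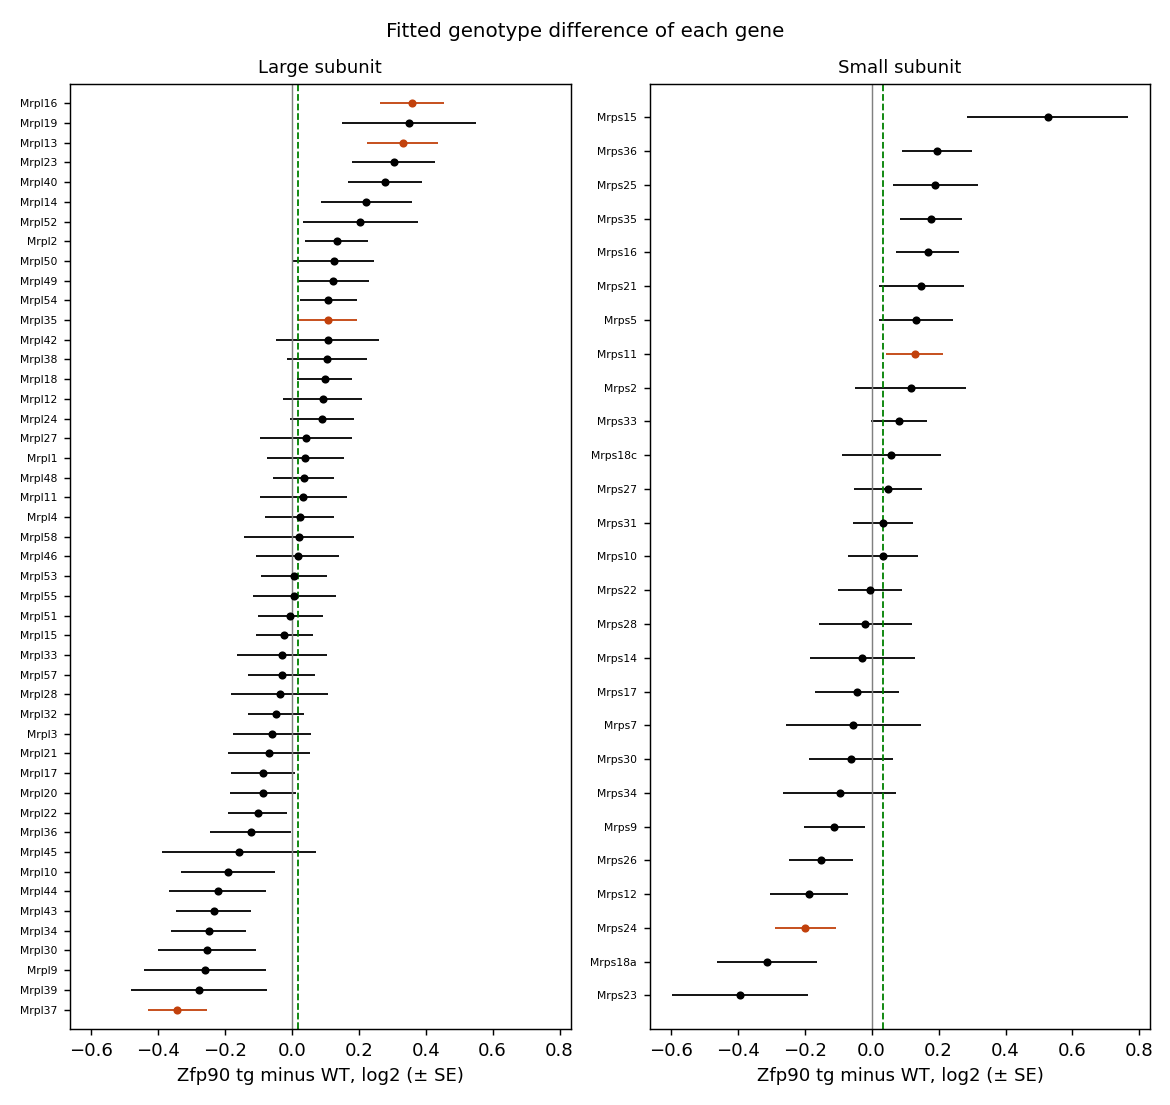
Fitted difference, transgenic minus wild type on the log2 scale with its SE (horizontal axis), for each large subunit gene (left) and small subunit gene (right), sorted by value. Orange marks the 6 genes whose genotypes did not overlap, and the dashed line is the subunit's median, at 0.02 for the large and 0.03 for the small subunit.

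Among large subunit genes with a bacterial counterpart, Mrpl16 had the smallest p of those on the higher side. It encodes the counterpart of bacterial L16, which lies beside the tRNA sites. Mrpl16 read 0.13, 0.31 and 0.46 in the transgenic female and males 1 and 2, against -0.10, 0.04, -0.11 and -0.02 in the wild-type female and males 2, 3 and 4. Every transgenic animal was above every wild-type animal, and the difference was 0.36 ± 0.10 SE, 1.28-fold (limma, adjusted p = 0.653). Mrpl13, the counterpart of the rRNA-binding L13, read 0.41, 0.15 and 0.26 in transgenic animals and -0.10, -0.17, 0.09 and -0.07 in wild-type animals, in the same order. The groups did not overlap here either, at 0.33 ± 0.11 SE, 1.26-fold (limma, adjusted p = 0.699). Mrpl23, the counterpart of L23 at the mouth of the exit tunnel, read 0.33, 0.24 and 0.17 in transgenic animals and -0.07, -0.05, 0.17 and -0.29 in wild-type animals. Its lowest transgenic animal, male 2, was level with wild-type male 3, and the difference was 0.30 ± 0.12 SE. The probes of Mrpl23 gave 0.31 and 0.29.

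Mrpl35, the counterpart of L35, was the third large subunit gene without overlap on the higher side. It read 0.07, 0.10 and 0.17 in transgenic animals and 0.01, 0.05, -0.09 and 0.06 in wild-type animals. The groups overlapped once arrays were centred or quantile normalized, and the difference was 0.11 ± 0.09 SE (limma, adjusted p = 0.85). Mrpl19, the counterpart of L19 at the subunit interface, read 0.45, 0.20 and 0.02 in transgenic animals and -0.35, -0.18, 0.36 and -0.34 in wild-type animals. Wild-type male 3 stood above the transgenic males, so the genotypes overlapped, and the difference was 0.35 ± 0.20 SE, or 0.16 in the males alone, as when either female was left out.

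On the lower side, the counterparts of L34 and L30 showed overlapping groups. Mrpl34 read -0.42, -0.03 and -0.22 in transgenic animals and -0.13, 0.16, -0.08 and 0.24 in wild-type animals, a difference of -0.25 ± 0.11 SE. Mrpl30 read -0.47, -0.23 and 0.05 in transgenic animals and -0.08, 0.13, -0.18 and 0.35 in wild-type animals, at -0.25 ± 0.15 SE. In both genes the transgenic female was the lowest animal. Over all 29 large subunit members classed with a bacterial counterpart, 15 were positive, with a median of 0.01.

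Of the large subunit genes specific to mitochondria, Mrpl37 had the smallest p of all members. It read -0.29, -0.36 and -0.25 in the transgenic female and males 1 and 2, against 0.18, -0.05, -0.02 and 0.02 in the wild-type female and males 2, 3 and 4. All transgenic animals were below all wild-type animals, and the difference of -0.34 ± 0.09 SE made it 1.27-fold lower (limma, adjusted p = 0.653). Mrpl40, a protein of the central protuberance, read 0.20, 0.22 and 0.25 in transgenic animals and -0.24, -0.08, 0.21 and -0.07 in wild-type animals. The transgenic values were close together, but wild-type male 3 lay among them, and the difference was 0.28 ± 0.11 SE (limma, adjusted p = 0.72).

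Mrpl43 read -0.50, -0.03 and -0.10 in transgenic animals and -0.03, 0.10, -0.09 and 0.19 in wild-type animals, with the transgenic female lowest. The difference was -0.23 ± 0.11 SE over all animals and -0.13 in the males alone. Mrpl44, which has an RNase III-like fold and carries disease variants in human cardiomyopathy, read -0.14, -0.31 and -0.07 in transgenic animals and -0.01, 0.16, -0.23 and 0.29 in wild-type animals. Wild-type male 3 lay below 2 of the 3 transgenic animals, and the difference was -0.22 ± 0.14 SE, or -0.13 without transgenic male 1 and -0.14 without wild-type male 4. Of the 18 large subunit members specific to mitochondria, 11 were positive, with a median of 0.02.

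In the small subunit, Mrps15 had the largest fitted difference of all members on the higher side. It encodes the counterpart of S15, an rRNA-binding protein of early assembly. It read 0.87, 0.26 and 0.12 in transgenic animals, against -0.29, -0.14, 0.38 and -0.44 in wild-type animals. The transgenic female stood far above the rest and wild-type male 3 above both transgenic males. The difference was 0.53 ± 0.24 SE, 1.44-fold (limma, adjusted p = 0.73), and 0.26 in the males alone. Mrps11, the counterpart of S11, read 0.13, 0.13 and 0.12 in transgenic animals and -0.10, 0.08, 0.03 and -0.01 in wild-type animals. The groups did not overlap here but did under quantile normalization, and the difference was 0.13 ± 0.08 SE (limma, adjusted p = 0.795). Mrps16, the counterpart of S16 and a human mitochondrial disease gene, differed by 0.17 ± 0.09 SE with overlapping groups.

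Mrps35, specific to mitochondria, read 0.15, 0.29 and 0.12 in transgenic animals and -0.07, 0.14, 0.00 and -0.01 in wild-type animals. Transgenic male 2 lay below wild-type male 2, and the difference was 0.18 ± 0.09 SE. Mrps36 was long counted as ribosomal and is now described as an adaptor of the 2-oxoglutarate dehydrogenase complex. Its difference was 0.19 ± 0.10 SE, but its 4 probes ran from -0.03 to 0.30.

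On the lower side of the small subunit, only Mrps24, the counterpart of S3 near the mRNA entry, had groups that did not overlap. It read -0.20, -0.31 and -0.13 in transgenic animals and 0.05, -0.12, -0.02 and 0.00 in wild-type animals, at -0.20 ± 0.09 SE (limma, adjusted p = 0.731). Transgenic male 2 and wild-type male 2 were nearly level, and the groups overlapped once arrays were centred or quantile normalized. Mrps23, specific to mitochondria, had the most negative difference of all members, -0.39 ± 0.20 SE. It read -0.44, -0.38 and -0.10 in transgenic animals and 0.25, -0.02, -0.35 and 0.46 in wild-type animals, whose span of 0.81 was wider than the genotype difference.

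Mrps18a, one of the paralogues related to bacterial S18, is named for the small subunit but sits in the large one. It read -0.45, -0.31 and -0.15 in transgenic animals and 0.03, 0.01, -0.28 and 0.31 in wild-type animals, at -0.31 ± 0.15 SE. Mrps26, specific to mitochondria, and Mrps12, the counterpart of the accuracy protein S12, differed by -0.15 ± 0.10 SE (-0.10 without either female) and -0.19 ± 0.12 SE, both with overlapping groups. Counted by symbol, small subunit members with a bacterial counterpart were positive in 8 of 15 cases, and those specific to mitochondria in 5 of 10.

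**Figure D3:**
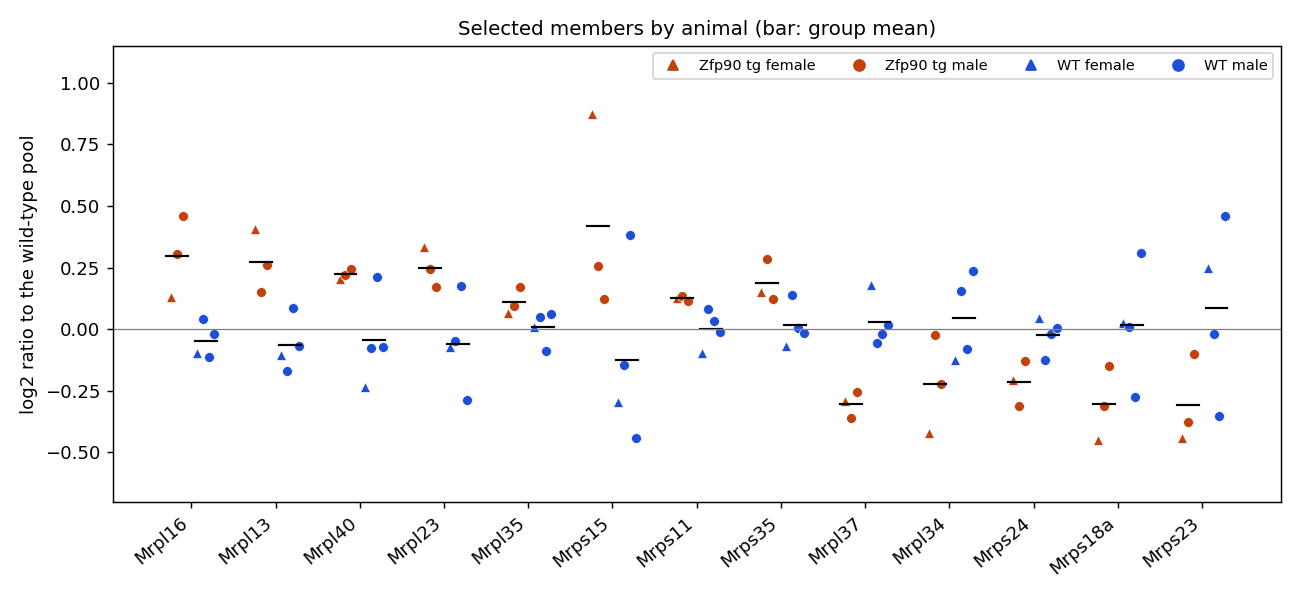
Log2 ratio to the wild-type pool (vertical axis) of 13 members (horizontal axis) in each animal, with transgenic animals in orange at the left of each pair and wild-type animals in blue. Triangles are females, circles males and bars group means. Mrpl16 and Mrpl13 lie wholly higher and Mrpl37 wholly lower in transgenic animals, while the Mrps15 and Mrps23 groups overlap.

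Promoter windows of 300 bases (250 before and 50 after the start, RefSeq, build GRCm38.p6) were available for 65 of the 74 members, in 71 windows. A search for 4 motifs on both strands asked what the genes share in sequence. The motifs were CGGAAG, the core bound by ETS factors such as GABP, GCGCA and GCGC with any base between them for NRF1, AANATGGCG for YY1, and CACGTG, the E-box. NRF1 and GABP are known regulators of nuclear genes for mitochondria. The ETS core was in 53.5% of the members' windows and in 23.2% of 16124 windows of measured protein-coding genes. The NRF1 motif was in 18.3% of members' windows and in 7.41% of the others' set, the YY1 motif in 15.5% and 3.56%, and the E-box in 9.86% and 8.74%. The larger set includes the members, and no 2 motifs overlapped in a member's window. A match is a description of the letters and not evidence of binding.

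The windows of 6 members are shown with the matched letters in capitals, each 5′ to 3′ on the strand of its gene. They are 4 members whose genotypes did not overlap and the lowest and highest holder of the NRF1 motif by fitted difference. Mrpl16 (chr19:11770165-11770464, + strand) holds an ETS core, Mrps11 (chr7:78782881-78783180, + strand) a YY1 motif, Mrpl37 (chr4:107066817-107067116, - strand) an E-box and a YY1 motif, and Mrps24 (chr11:5707652-5707951, - strand) an ETS core and a YY1 motif. Mrpl39 (chr16:84735195-84735494, - strand) and Mrpl14 (chr17:45686099-45686398, + strand) each hold an NRF1 motif.
Mrpl16: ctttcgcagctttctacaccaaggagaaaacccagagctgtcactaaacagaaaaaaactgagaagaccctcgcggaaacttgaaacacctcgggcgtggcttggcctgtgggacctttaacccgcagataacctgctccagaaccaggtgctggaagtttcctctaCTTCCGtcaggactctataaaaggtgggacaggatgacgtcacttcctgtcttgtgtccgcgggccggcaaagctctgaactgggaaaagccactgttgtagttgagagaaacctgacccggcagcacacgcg
Mrps11: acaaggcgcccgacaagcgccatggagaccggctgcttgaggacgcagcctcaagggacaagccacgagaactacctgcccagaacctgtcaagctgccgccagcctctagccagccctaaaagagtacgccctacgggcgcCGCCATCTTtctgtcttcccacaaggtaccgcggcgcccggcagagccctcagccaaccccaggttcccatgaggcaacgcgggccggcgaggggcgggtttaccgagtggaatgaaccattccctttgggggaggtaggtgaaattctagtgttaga
Mrpl37: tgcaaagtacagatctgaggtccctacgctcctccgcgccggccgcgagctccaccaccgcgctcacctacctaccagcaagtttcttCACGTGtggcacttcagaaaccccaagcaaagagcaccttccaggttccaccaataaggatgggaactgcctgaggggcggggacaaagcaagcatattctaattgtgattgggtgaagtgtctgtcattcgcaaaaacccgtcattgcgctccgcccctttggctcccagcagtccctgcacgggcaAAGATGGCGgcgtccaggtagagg
Mrps24: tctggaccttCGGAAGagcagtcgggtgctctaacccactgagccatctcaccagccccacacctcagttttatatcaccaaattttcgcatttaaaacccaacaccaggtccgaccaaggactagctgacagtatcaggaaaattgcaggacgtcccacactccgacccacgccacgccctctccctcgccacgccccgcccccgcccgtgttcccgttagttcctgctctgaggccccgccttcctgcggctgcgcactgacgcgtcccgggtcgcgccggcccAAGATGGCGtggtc
Mrpl39: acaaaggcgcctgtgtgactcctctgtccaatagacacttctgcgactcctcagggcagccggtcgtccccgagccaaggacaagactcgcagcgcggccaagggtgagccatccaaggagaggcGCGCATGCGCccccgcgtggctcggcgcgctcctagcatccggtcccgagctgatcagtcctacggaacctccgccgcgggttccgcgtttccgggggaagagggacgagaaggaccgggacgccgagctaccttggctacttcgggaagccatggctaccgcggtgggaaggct
Mrpl14: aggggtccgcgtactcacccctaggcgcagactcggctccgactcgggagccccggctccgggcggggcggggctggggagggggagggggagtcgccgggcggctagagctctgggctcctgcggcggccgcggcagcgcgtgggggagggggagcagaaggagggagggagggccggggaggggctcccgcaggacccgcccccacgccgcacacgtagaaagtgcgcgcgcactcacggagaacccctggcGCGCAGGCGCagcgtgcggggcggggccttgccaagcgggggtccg

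Of the 6 members without overlap, Mrpl13 had no promoter window. A YY1 motif was in 4 of the 6, against 11 of all 65 members with a window. These 4 were Mrps11 and Mrpl35 on the higher side, and Mrpl37 and Mrps24 on the lower. The 6 were picked by their genotype values, and Mrps11, Mrpl35 and Mrps24 overlapped under quantile normalization. A link of this motif with genotype was not tested. Of the 13 members with an NRF1 motif 3 were positive, with a median difference of -0.11, and of the 52 without it 31 were positive, with a median of 0.03. Among 1103 measured protein-coding genes with that motif 44.3% were positive and the median was -0.02, against 49.2% and -0.00 of 11831 without it. Mrpl39, at the low end of these 13, differed by -0.28, and Mrpl14, a counterpart of L14 at the high end, by 0.22. Of the 37 members with an ETS core 16 were positive (median -0.03), and of the 28 without it 18 (median 0.06). Among measured protein-coding genes 45.9% were positive with that core and 49.8% without it. With a YY1 motif 6 of 11 members were positive, against 46.1% of the measured protein-coding genes that hold it. With an E-box 2 of 5 members were positive, against 44.2%. None of these gene sets held a member past the threshold.

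The main common pattern of the members lay between single animals and crossed the genotypes. Across the 74 genes, the ratios of the transgenic female correlated with those of wild-type male 3 (r = 0.75) and ran against those of wild-type male 4 (r = -0.76). Wild-type males 3 and 4 ran against each other at r = -0.74. Over all 22218 features the same 3 correlations were 0.21, -0.49 and -0.19. All animals share the pool as denominator, genes are not independent replicates, and these values are descriptions. The sample titles do not say whether the pool holds RNA of the same wild-type animals, which would tie their ratios to one another. The transgenic males 1 and 2 correlated at 0.46 over the members and 0.50 over all features. The first principal component held 62.4% of the variance of the members over the 7 animals, with the transgenic female (0.63) and wild-type male 3 (0.37) at one end and wild-type male 4 (-0.61) at the other. Over all features it held 39.2%. The transgenic female (0.66) and wild-type male 4 (-0.55) were again its ends, with wild-type male 3 at 0.03.

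**Figure D4:**
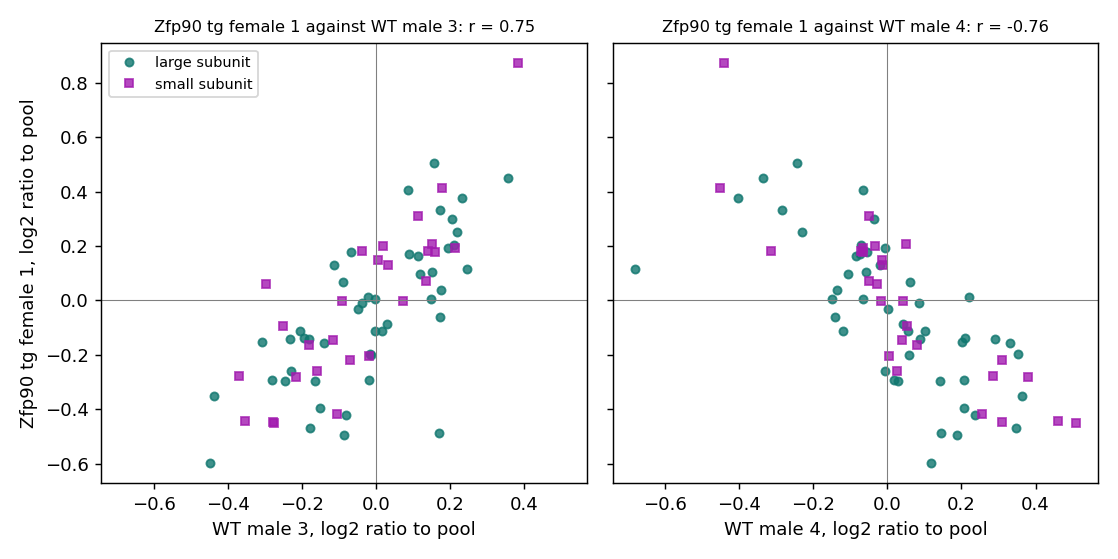
Log2 ratios to the wild-type pool of the 74 members in the transgenic female (vertical axis) against wild-type male 3 (left, horizontal axis) and wild-type male 4 (right). Circles are large and squares small subunit genes. The points rise with wild-type male 3 (r = 0.75) and fall with wild-type male 4 (r = -0.76).

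The axis of the members split both subunits rather than moving them together. Between wild-type males 3 and 4, 33 members were higher in male 3 (20 large, 13 small) and 41 lower (27 large, 14 small). At one extreme, Mrpl45, which ties the ribosome to the inner membrane, read 0.25 in wild-type male 3 and -0.68 in wild-type male 4, and Mrps15 read 0.38 and -0.44. At the other, Mrps23 read -0.35 and 0.46, Mrpl39 -0.44 and 0.36, and Mrps7, the counterpart of S7, -0.27 and 0.51. A difference of over 0.5 between these 2 animals was seen in 15 members, against 17.8% of all features. The correlations of the transgenic female with the same wild-type males were 0.71 and -0.70 over the large and 0.84 and -0.88 over the small subunit. They were 0.76 and -0.70 over 77 nuclear respiratory chain subunits and 0.59 and -0.59 over 63 cytosolic ribosomal proteins. Whether these sets differ was not tested.

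**Figure D5:**
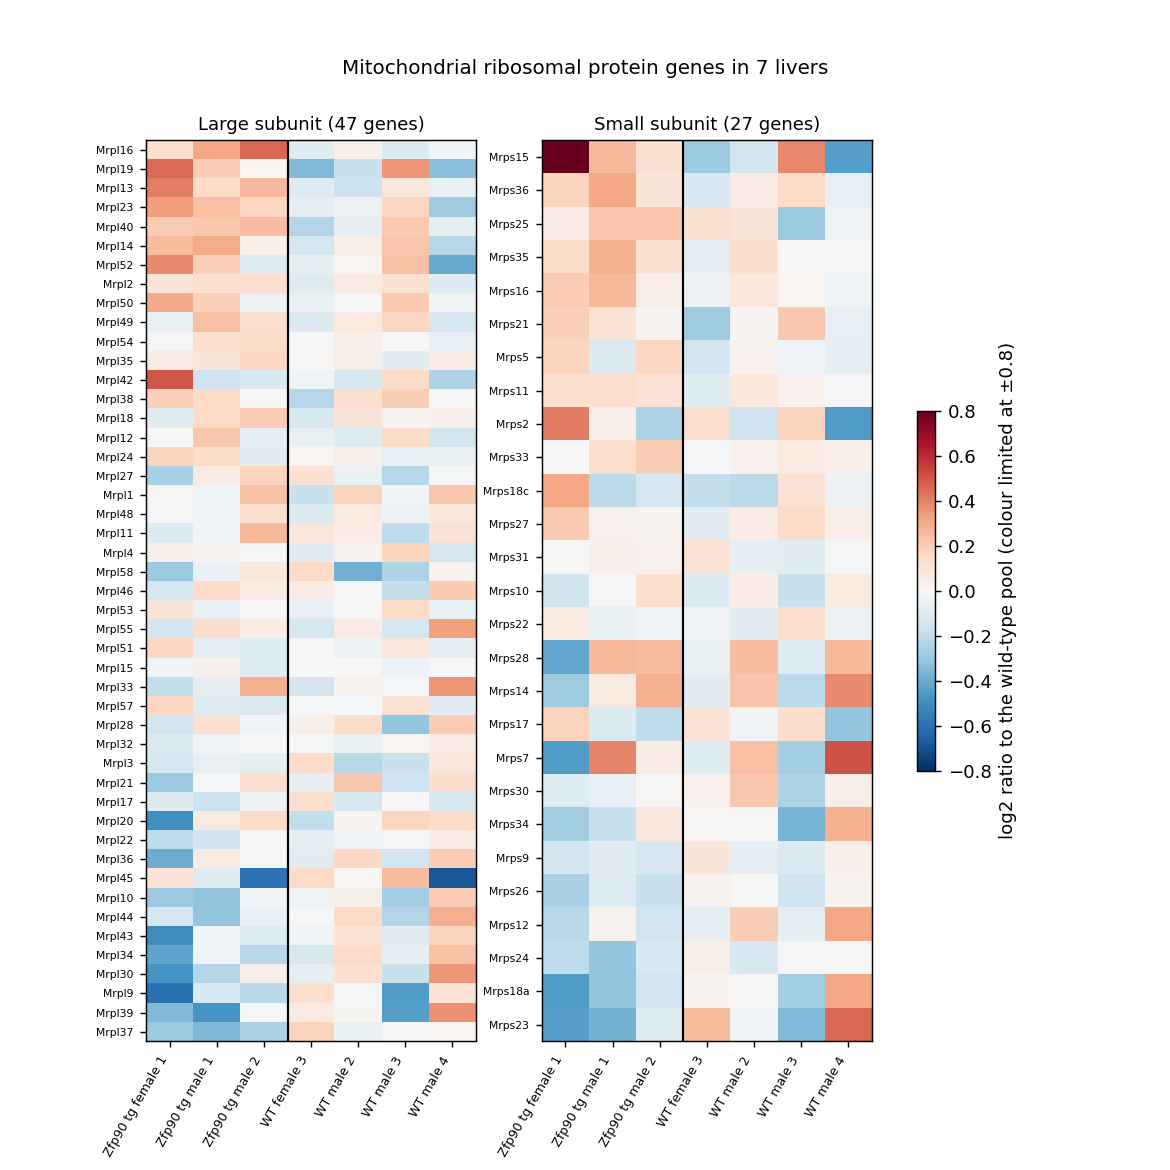
Log2 ratio to the wild-type pool (colour, limited at ±0.8) of each member (rows, sorted by fitted difference) in the 3 transgenic and 4 wild-type animals (columns, transgenic left of the line). Many genes that are red in the transgenic female and wild-type male 3 are blue in wild-type male 4, and the reverse.

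Leaving out wild-type male 3 changed the count of small p-values the most. Without it, 20 of 74 members had an unadjusted p under 0.05 (8 higher, 12 lower), against 15.9% of all features, and 22 members did not overlap, against 17.3%. Mrps15 then differed by 0.71 ± 0.16 SE, Mrpl40 by 0.35 ± 0.08 SE, Mrpl13 by 0.39 ± 0.09 SE and Mrpl19 by 0.51 ± 0.12 SE. The smallest adjusted p in limma was 0.181, so no member passed there either. The large subunit median became -0.02. Without the transgenic female, and likewise without the array labelled wild-type female, 2 members had an unadjusted p under 0.05, Mrpl16 (0.41) and Mrpl37 (-0.29), against 6.96% of all features. The groups did not overlap in 14 members without the transgenic female (18.9%, against 12.7% of all features) and in 7 without the array labelled wild-type female (9.46%, against 13.4%). In the males alone 0 members were called, against 0.0315% of all features, and 17 members did not overlap, against 22.6%. Leaving out transgenic male 1 or 2 gave 3 and 2 members at an unadjusted p under 0.05, against 3.62% and 6.85% of all features. The groups then did not overlap in 12 members (16.2%, against 10% of all features) and 17 members (23%, against 15.4%). Leaving out wild-type male 2 or 4 gave 3 members each, against 4.42% and 4.63%, with 10 and 6 members that did not overlap, against 7.84% and 8.42%.

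Females and males were compared in the same model. None of the 74 members passed (limma, adjusted p of 0.229 or more), while 78 features did, or 0.351%. At an unadjusted p under 0.05 there were 3 members, all lower in females, against 9.23% of all features. Mrpl20, the counterpart of L20, averaged -0.34 in the 2 females and 0.11 in the 5 males, a difference of -0.45 ± 0.11 SE (adjusted p = 0.229). Both females, at -0.49 (transgenic) and -0.20 (wild type), were below all 5 males. Mrps28, related to bacterial S1, averaged -0.24 and 0.18 (-0.42 ± 0.15 SE), with wild-type male 3 below the wild-type female. Its difference was -0.19 without the transgenic female and -0.67 without the wild-type female. Mrpl18, the counterpart of L18, averaged -0.11 and 0.11 (-0.22 ± 0.09 SE), but its 2 probes ran against each other over the animals (r = -0.45). Of the 74 members 47 were on the lower side in females, with a median of -0.05, against 0.01 over all features.

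The interaction of genotype and sex rests on 1 female per genotype, and 0 members passed (16 features, 0.072%). At an unadjusted p under 0.05 there were 3 members, against 8.42% of all features. They were Mrpl27, the counterpart of L27 at the catalytic centre, Mrps18c, a counterpart of S18, and Mrpl58, a release factor relative that rescues stalled ribosomes. Mrpl27 differed by -0.38 between the females and by 0.22 between the males (limma interaction -0.60 ± 0.21 SE, adjusted p = 0.533). For Mrps18c the values were 0.50 and -0.12, and for Mrpl58 -0.45 and 0.22.

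Genes that work with the mitochondrial ribosome were grouped in 5 lists, in each of which 0 genes passed limma's threshold. At most 2 per list had an unadjusted p under 0.05, against 6.91% of all features. The 2 genotypes did not overlap in 1 of 3 ribosomal proteins, 1 of 22 assembly genes and 2 of 14 translation factors. They did not overlap in 1 of 15 genes for tRNA charging and 0 of 14 regulators, against 6.01% of all features. Of 3 ribosomal proteins with other symbols, all were positive, and Dap3, a GTP-binding small subunit protein, read 0.30, 0.34 and 0.23 in transgenic animals and 0.01, 0.22, -0.02 and 0.15 in wild-type animals (0.21 ± 0.10 SE). Transgenic male 2 was only just above wild-type male 2. The next, Chchd1, differed by 0.09 ± 0.11 SE. Of 22 genes for assembly and rRNA modification 10 were positive (median -0.02). Mrm3, which methylates the large subunit rRNA, read 0.35, 0.40 and 0.31 in transgenic animals and -0.30, 0.11, 0.11 and -0.08 in wild-type animals. Its groups did not overlap, and the difference was 0.41 ± 0.11 SE (limma, adjusted p = 0.653). The GTPase Noa1 differed by -0.21 ± 0.09 SE.

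Of 14 translation factors 8 were positive (median 0.04), and the 2 with the smallest p were the release factor relatives Mtrf1 (0.25 ± 0.10 SE) and Mtrf1l (0.15 ± 0.09 SE), in both of which the groups did not overlap. Of 13 mitochondrial aminoacyl-tRNA synthetases 8 were negative (median -0.06), but in the males alone 8 were positive (median 0.04). The same list held 2 subunits of the glutamyl-tRNA amidotransferase, Qrsl1 (-0.16) and Gatb (0.08). Ears2, which charges glutamate, read -0.42, -0.27 and -0.37 in transgenic animals and 0.29, 0.10, -0.22 and 0.28 in wild-type animals, without overlap and at -0.47 ± 0.14 SE (limma, adjusted p = 0.677). Hars2, which charges histidine, differed by 0.17 ± 0.12 SE. Of 14 regulators of mitochondrial transcription and biogenesis 8 were negative (median -0.03). The coactivator Ppargc1a read 1.09, 0.18 and -0.04 in transgenic animals and 0.30, -0.29, -0.07 and -0.38 in wild-type animals. The groups overlapped, with the wild-type female above both transgenic males. Its genotype difference was 0.46 ± 0.14 SE, or 0.32 in the males alone, and its difference of females minus males was 0.77 ± 0.15 SE. The DNA polymerase Polg differed between genotypes by -0.24 ± 0.09 SE.

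Set beside the sets most like them, the 74 members had 40 positive differences and a median of 0.02. The 77 nuclear subunits of the respiratory chain had 60 positive differences and a median of 0.14, or 0.06 in the males alone. The 63 cytosolic ribosomal proteins had 26 positive differences and a median of -0.04. At an unadjusted p under 0.05 there were 4 respiratory chain (5.19%) and 2 cytosolic ribosomal genes (3.17%), against 6.91% of all features. In either set 0 passed limma's threshold, and the difference between the sets was not tested.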

How the data were processed

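The authors deposited 1 value per probe and animal, which was read as a log10 ratio of animal to pool: the labels name 2 colours and dye swaps, and the values end at -2 and 2. The Y-linked gene Kdm5d read -2.54 and -3.22 (log2) in the females and 0.14 to 0.66 in the males, which set the direction. Centring (column medians -0.0042 to 0.0093), background correction, normalization and the merging of dye swaps are not given in the sources used here, so signal over background is unknown and the number of arrays limits precision. Array correlations over all probes fell to -0.497, below -0.3 in 3 pairs. With every sign turned each difference changes sign and keeps its p.

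Values were multiplied by 3.32 to give log2. Of 23574 probes 17824 had 1 gene symbol, 50 several and 5700 none, and 0 symbols changed on updating. The members had 83 probes, and the 7 genes with more than 1 probe were taken as the mean over probes. Genotype and sex were fitted with limma 3.58.1 (R 4.3.3) over all 22218 features of 7 arrays, with Benjamini-Hochberg adjustment, and the interaction in its own model. The fit was tested on simulated data. P-values set each difference against the spread between these animals within groups, moderated by limma over all features. In the interaction model that spread comes from the males alone.

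Members, lists and tests were chosen with earlier results of these data known. The members named were the 5 with the smallest p in each direction per subunit, those whose genotypes did not overlap, the 3 with the smallest p for sex and for the interaction, and 2 genes per related list. Others were named for their motif or as ends of the wild-type male axis after their values were seen.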

Additional observations from a re-analysis of the deposited data

Results flagged for a closer look

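In 6 members the males did not overlap between genotypes while the 2 females differed the other way, a pattern seen in 12% of all features. The difference, females minus males, was -0.60 for Mrpl27, 0.25 for Mrpl51, 0.28 for Mrpl57, -0.36 for Mrps25, 0.35 for Mrps27 and -0.22 for Mrps31. The interaction in limma passed for none of them, with adjusted p between 0.533 and 0.763, and each females' value rests on 1 animal per genotype. Of the named members and the subunit means, 0 had a wild-type animal far enough from the other 3 to pass Dixon's criterion for 4 values.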

How the results depend on the processing

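Centring each array, quantile normalization, dropping the sex term, a robust variance model and named genes alone left the count of features called at 0 and 5 or 6 members at an unadjusted p under 0.05. Members without overlap numbered 6 with centring, of which 4 were among the original 6, and 4 with quantile normalization (5.41%, against 5.22% of all features), of which 3 were. Over single probes 7 of 83 had an unadjusted p under 0.05 (6.83% of all probes) and 7 did not overlap (5.98%). In the males alone 7 features were called, 2 members (2.7%, against 6.96% of all features) had an unadjusted p under 0.05 and 17 (23%, against 22.6%) did not overlap. Leaving out each animal in turn gave 0 to 7 features called. Members at an unadjusted p under 0.05 numbered from 2 (6.85% or 6.96% of all features in the same runs) to 20 (15.9%). Those without overlap numbered from 6 (8.42% of all features in the same run) to 22 (17.3%). The large subunit median ran from -0.0197 to 0.0494 and the small subunit median from 0.0031 to 0.0454. The count of 20 and the negative median were both without wild-type male 3. Under every alternative run, 0 members were called. Of 294 recomputed genotype differences of 21 named members 293 kept their sign and their side of the threshold, and Mrps36 differed by -0.0338 on 1 of its probes. Many of these could not change: males alone and leaving out either female gave the same difference. The robust variance model and named genes alone repeat the main difference, and the 21 were chosen by these same data. The count is therefore no measure of stability. Leaving out 1 animal moved the difference by over 1.5 times in 5 of these 21: Mrpl19, Mrpl43, Mrpl44, Mrps15 and Mrps26. No paired analysis was possible because the animals compared share fewer than 2 replicate numbers within a sex.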
